A study of Mus musculus with 4 samples.

Results

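The AP-1 transcription factor family was followed through the scRNA-Seq counts of cultured mouse splenic B cells, by the symbols of 10 genes among the 31053 genes in the feature table: the FOS genes Fos, Fosb, Fosl1, and Fosl2, the JUN genes Jun, Junb, and Jund, the BATF genes Batf and Batf3, and Atf3. All 10 were found. The question put to each was how many mRNA molecules it had in each numbered library, and whether that differed in cells that were cycling or rich in Jchain, the joining chain of secreted antibodies.

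The B cells came from WT C57BL/6 mice, which the methods place at 6 to 12 weeks of age, and were purified by negative isolation after red cell lysis. The labels describe 2 samples of Bregs-CpG and 2 of Bregs-TLR. In both groups cells were cultured for 3 days with CpG B ODN 1668, a TLR9 ligand (10 μg/mL), and only Bregs-TLR were also given LPS, a TLR4 ligand (10 μg/mL), the phorbol ester PMA (50 ng/mL), and the calcium ionophore ionomycin (1 μg/mL) over the last 5 hours. Barcodes number the libraries 5 to 8, but no label ties a number to a culture, so neither name is given to a library. The data were treated as 1 pooled sample, with no test and no P value between conditions, and the labels do not say whether the samples of a group were separate mice.

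AP-1 is a pair of basic leucine zipper (bZIP) proteins that bind DNA together. JUN proteins pair with themselves or with FOS proteins, whereas FOS proteins need a JUN partner. BATF proteins also pair with JUN proteins and, in lymphocytes, bind jointly with IRF4 or IRF8. Fos, Fosb, Jun, Junb, and Atf3 are immediate early genes, transcribed soon after a stimulus without new protein synthesis, while FOS-like genes tend to follow and Jund is made steadily. Phorbol esters act on protein kinase C and the MAP kinases above AP-1, and Toll-like receptors reach the same kinases.

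Stretches upstream of 4 members are shown, because Fos and Jun are the best known immediate early members and because Junb and Batf had the widest range between libraries of the abundant members. RefSeq promoters on GRCm38.p6, which run from 250 bases before to 50 bases after the start site, were matched by symbol for 9 of the 10 members, with Fosl1 named only. Each stretch below is read 5′ to 3′ along the gene, ends before the start sites of RefSeq and of GENCODE vM21, and has capitals where a searched motif matched. Fos lies at chr12:85473640-85473889 (+), Jun at chr4:95052223-95052472 (-), Junb at chr8:84978749-84978998 (-), and Batf at chr12:85686470-85686668 (+).
Fos: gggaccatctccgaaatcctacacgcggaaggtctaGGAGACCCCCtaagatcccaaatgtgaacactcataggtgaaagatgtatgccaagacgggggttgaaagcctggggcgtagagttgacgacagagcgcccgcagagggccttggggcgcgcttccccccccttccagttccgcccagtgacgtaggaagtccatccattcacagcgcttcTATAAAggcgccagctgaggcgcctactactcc
Jun: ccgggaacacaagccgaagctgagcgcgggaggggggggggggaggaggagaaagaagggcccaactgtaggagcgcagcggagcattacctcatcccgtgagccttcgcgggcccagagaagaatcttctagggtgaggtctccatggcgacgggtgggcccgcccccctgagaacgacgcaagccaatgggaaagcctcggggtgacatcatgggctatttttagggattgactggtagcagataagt
Junb: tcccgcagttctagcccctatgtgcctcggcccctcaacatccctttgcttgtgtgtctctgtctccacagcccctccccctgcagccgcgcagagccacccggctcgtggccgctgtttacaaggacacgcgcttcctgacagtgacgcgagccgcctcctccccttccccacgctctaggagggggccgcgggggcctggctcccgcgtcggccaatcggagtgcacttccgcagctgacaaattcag
Batf: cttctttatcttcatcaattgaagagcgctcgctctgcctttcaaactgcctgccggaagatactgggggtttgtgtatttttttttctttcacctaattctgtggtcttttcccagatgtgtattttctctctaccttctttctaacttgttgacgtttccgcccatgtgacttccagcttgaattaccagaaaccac

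Both strands of each 300-base promoter were searched for the AP-1 site TGANTCA, the cyclic AMP response element TGACGTCA, the CArG box, the NF-κB motif, and, before the start site on the gene's own strand, the TATA box TATAAA. Of 27025 promoters, 7.93% held the AP-1 letters, 1.88% the cyclic AMP response element, 1.57% the CArG box, 8.18% the NF-κB motif, and 8.12% the TATA box. The Fos promoter held an NF-κB match starting at base -214 and TATAAA at base -33, counted from the start site. The Fosb promoter held an NF-κB match at base -188, read on both strands, and the Fosl2 promoter had overlapping ones at bases -182 and -181. No match was found in the parts searched for Jun, Junb, Jund, Batf, Batf3, or Atf3. For Junb, TATAAA begins right at the RefSeq start site, past the part searched for it. The GENCODE start of Junb, chr8:84978718 (-), lies downstream of these letters, so TATAAA lies upstream of that start. For Jund the part searched was chr8:70697489-70697788 (+), upstream of the GENCODE gene start at 70698949. For Fosl2, Batf3, and Atf3 the part searched lay inside the GENCODE gene. It was chr5:32136222-32136521 (+) for Fosl2, whose GENCODE start is 32135801. For Batf3 it was chr1:191098164-191098463 (+), with the GENCODE start at 191097847. For Atf3 it was chr1:191183284-191183583 (-), with the GENCODE start at 191218039. The bases next to the GENCODE starts of these genes and of Jund were therefore not searched. A match describes letters only, and no binding was measured here.

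The kept cells numbered 18534 of 19920, between 4003 and 5621 in a library, with 44842982 to 63638158 UMIs per library. A UMI marks 1 captured mRNA molecule at its 3′ end, so counts were not divided by transcript length, and levels are given as UMIs per 1000000 UMIs (CPM) with exact Poisson 95% intervals that cover counting error only. The B cell list was detected in every library, but its summed level was 8275, 8522, 2105, and 2162 CPM in libraries 5, 6, 7, and 8. All NK cell and neutrophil markers were at 0, and the summed T cell, monocyte or macrophage, dendritic cell, and platelet lists stayed at or below 5.44 CPM in each library. The red cell list summed to 4.59, 4.30, 219, and 285 CPM, nearly all from Hbb-bt, with Hba-a1 and Hba-a2 at 0. Median mitochondrial shares were 7.22%, 7.18%, 4.61%, and 4.65%, and 28 kept barcode sequences occurred in more than 1 library. The part of these differences in the AP-1 values was not tested.

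The family as a whole made up 1242, 1264, 1703, and 1572 CPM in libraries 5, 6, 7, and 8, and 5 of its genes, Jund, Batf, Junb, Jun, and Atf3, held nearly all of it. The FOS genes together were at most 1.05% of family UMIs in a library. Between the highest and the lowest library, 7 of the 10 members differed at least 2-fold, against 38.0% of the 11922 genes with at least 50 UMIs. A range of at least 4-fold was found for 4 members, Fosl1, Fosl2, Junb, and Batf3, against 13.2% of genes. Fosl1, Fosl2, and Batf3 passed the limit of 50 UMIs only through libraries 7 and 8, where they were high, so their calls were fixed by that limit and these counts are a description.

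**Figure D1:**
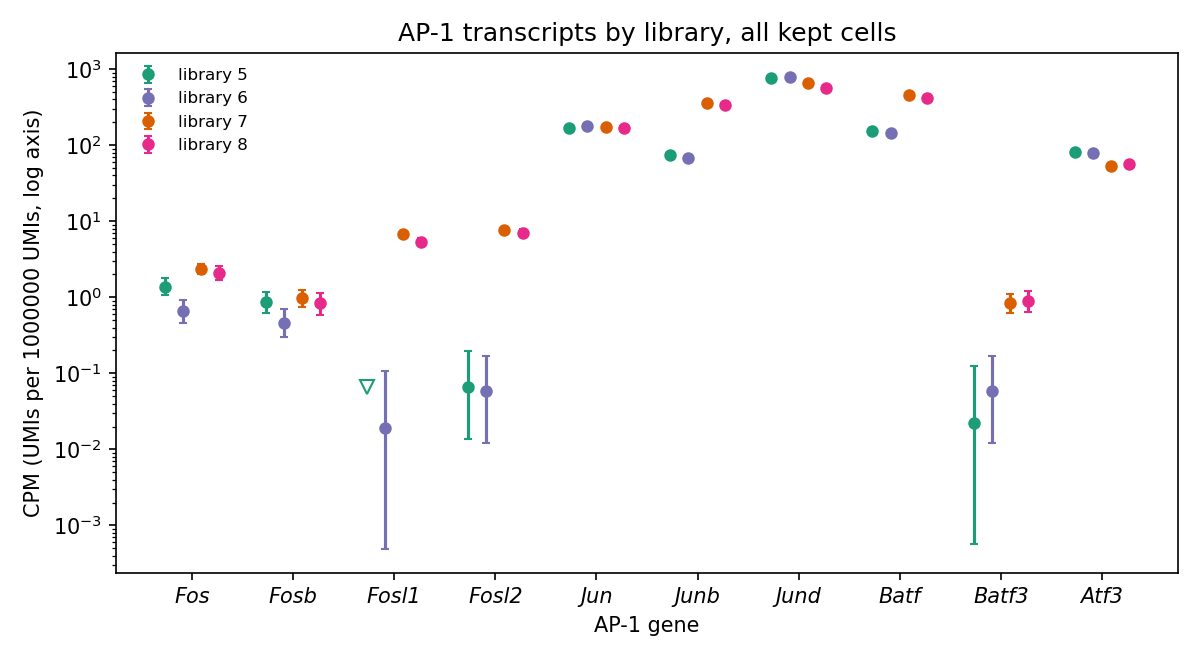
Level of each AP-1 gene in each library (points, CPM on a log axis) with exact Poisson 95% intervals for counting error. The open triangle marks the level of 3 UMIs for Fosl1 in library 5, where no UMI was found. Junb stood at 73.7 and 67.3 CPM in libraries 5 and 6 and at 354 and 343 in libraries 7 and 8, whereas the 4 points of Jun lay between 167 and 181 CPM.

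Jun, the founding member of the family, had 171 CPM in library 5, 181 in library 6, 173 in library 7, and 167 in library 8. These values lay within 1.08-fold of each other, and only 2.64% of tested genes had a smaller range. The log2 ratio of library 7 over 5 was 0.02 (95% interval -0.02 to 0.06). Its sign turned to negative with edgeR or DESeq2 scaling and when immunoglobulin, ribosomal protein, and mitochondrial UMIs were left out of the total, and it was 0.44 among cells under 5% mitochondrial UMIs, so no order of the libraries is given for Jun.

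Junb, a JUN protein induced by many stimuli and a weaker activator than Jun, had 73.7 CPM (71.2 to 76.3) in library 5, 67.3 (65.1 to 69.6) in library 6, 354 (350 to 359) in library 7, and 343 (338 to 349) in library 8. Both of the latter lay far above both of the former, and the ranges did not overlap. The fold was 4.81 for library 7 over 5 and 5.10 for library 8 over 6. The log2 ratio was -0.13 for library 6 over 5 and -0.05 for library 8 over 7. The former turned to 0.01 among cells under 5% mitochondrial UMIs and the latter to 0.01 with edgeR or DESeq2 scaling.

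Jund, the steadily expressed JUN gene, had the highest level of the 10 in every library, with 760 CPM in library 5, 791 in library 6, 649 in library 7, and 570 in library 8. Library 8 was the lowest and library 6 the highest, a 1.39-fold range. The ratio of library 7 over 5 was -0.23 and that of library 8 over 6 was -0.47 on the log2 scale. Under the alternative settings the former ran from -0.42 to -0.01 and the latter from -0.60 to -0.25.

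Batf, which has no transactivation domain and works through its partners, had 154 CPM (150 to 158) in library 5, 143 (140 to 147) in library 6, 454 (448 to 459) in library 7, and 420 (414 to 426) in library 8. As with Junb, libraries 7 and 8 were the high ones and the intervals of low and high libraries lay apart. The fold was 2.95 for library 7 over 5 and 2.93 for library 8 over 6. Among cells under 5% mitochondrial UMIs the log2 ratio of library 7 over 5 was 1.13 in place of 1.56.

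Atf3, a stress-responsive member that often represses its targets, had 80.7 CPM in library 5, 79.9 in library 6, 53.7 in library 7, and 56.0 in library 8. Here libraries 5 and 6 were the high ones. The ratio was -0.59 (-0.65 to -0.52) for library 7 over 5 and -0.51 (-0.58 to -0.44) for library 8 over 6 on the log2 scale, short of a 2-fold change. Libraries 5 and 6, and libraries 7 and 8, had ratios whose intervals contained 0.

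The FOS genes and Batf3 were rare. Fosl1, which encodes FRA1, had 0 UMIs in library 5, 1 in library 6, 433 in library 7, and 244 in library 8. These counts are 6.80 and 5.34 CPM in libraries 7 and 8. In library 5 the exact Poisson upper limit was 0.0823 CPM, and 3 UMIs would be 0.0669 CPM. With 3 UMIs in place of 0, Fosl1 was 102-fold higher in library 7 than in library 5, and the exact interval started at 6.36 on the log2 scale. The log2 ratio of library 8 over 6 was 8.11 (5.62 to 13.4). Fosl2, which encodes FRA2, had 3, 3, 488, and 322 UMIs in libraries 5, 6, 7, and 8. Its log2 ratio was 6.84 (5.29 to 9.12) for library 7 over 5 and 6.92 (5.36 to 9.21) for library 8 over 6, so both FRA genes were seen nearly only in libraries 7 and 8.

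Batf3, a close relative of Batf known for its role in dendritic cells, had 1, 3, 53, and 41 UMIs in libraries 5, 6, 7, and 8. The log2 ratio was 5.22 (2.68 to 10.5) for library 7 over 5 and 3.95 (2.30 to 6.29) for library 8 over 6, with wide intervals because of the few molecules. The dendritic cell list summed to 4.33 and 5.44 CPM in libraries 5 and 6 and to 0.314 and 0.285 CPM in libraries 7 and 8, nearly all from Flt3 in libraries 5 and 6, with Siglech at 0 in all 4, and its part in the Batf3 values was not tested.

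Fos, the classical immediate early gene, had only 1.38 CPM in library 5, 0.658 in library 6, 2.37 in library 7, and 2.10 in library 8. Library 6 was the lowest, and its log2 ratio over library 5 was -1.07 (-1.72 to -0.44). The ratio of library 7 over 5 was 0.78, but it became -0.33 among cells under 5% mitochondrial UMIs, where library 5 had 143 cells and 4 Fos UMIs. Fosb, its nearest relative, had 0.870, 0.465, 0.974, and 0.832 CPM, and libraries 5, 7, and 8 were within their intervals of each other.

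Set pair by pair, the calls for libraries 7 and 8 over libraries 5 and 6 were all upward. For library 7 over 5, 5 of 10 members were at least 2-fold higher against 16.2% of genes, and none was 2-fold lower against 15.0%. For library 8 over 6, 5 of 9 tested members were higher against 13.5% and none lower against 16.6%. For library 8 over 5, 4 of 9 were higher against 14.4% and none lower against 15.7%. For library 7 over 6, 7 of 10 were higher against 15.3% and none lower against 15.8%. For library 6 over 5 no member of 7 was higher, against 0.0812% of genes, and only Fos was lower, against 0.117%. Fos had 62 UMIs in library 5 and 34 in library 6. It passed the limit of 50 UMIs only through library 5, where it was high. For library 8 over 7 no member passed in either direction, against 0.109% of genes higher and 0.474% lower. In the comparisons of libraries 7 and 8 with libraries 5 and 6, the calls of Fosl1 and Fosl2, and of Batf3 and Fosb where made, came from genes that passed the limit of 50 UMIs only through the library where they were high and could only be called higher. The calls that did not rest on it this way were those of Junb and Batf. Fos, called against library 6, had 34 UMIs there, 151 in library 7, and 96 in library 8. It thus also passed the limit only through the library where it was high. These counts rest on 10 chosen genes, and the pairs share libraries.

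The make-up of the family differed accordingly. Jund supplied 61.2% and 62.6% of AP-1 UMIs in libraries 5 and 6 but 38.1% and 36.2% in libraries 7 and 8. Junb made up 5.94%, 5.32%, 20.8%, and 21.8%, and Batf 12.4%, 11.3%, 26.6%, and 26.7% in libraries 5, 6, 7, and 8. Jun kept a share of 10.2% to 14.3% throughout. The order from highest to lowest was thus Jund, Jun, Batf, Atf3, Junb in libraries 5 and 6, and Jund, Batf, Junb, Jun, Atf3 in libraries 7 and 8, with no overlap of the Poisson intervals between neighbours within a library.

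**Figure D2:**
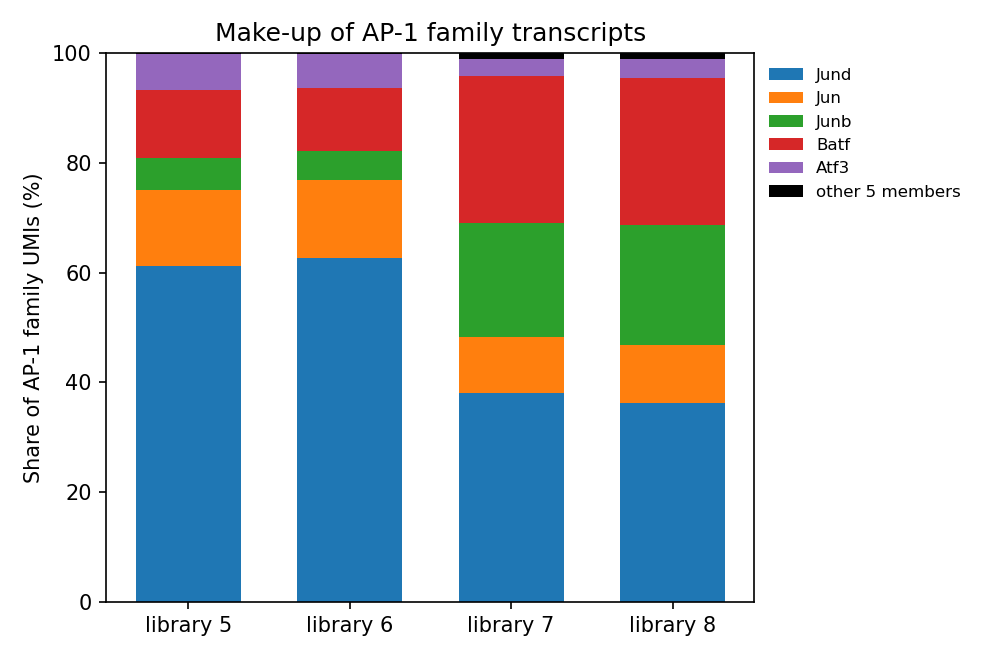
Share of each gene (stacked colours, %) in all AP-1 family UMIs of a library. Jund took 61.2% and 62.6% in libraries 5 and 6, and 38.1% and 36.2% in libraries 7 and 8, where Junb and Batf each exceeded 20%.

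Single cells were compared after thinning each to 4000 UMIs, which left out 29 to 91 shallower cells of a library. Junb was seen in 23.4% and 22.0% of cells of libraries 5 and 6 and in 69.2% and 67.8% of cells of libraries 7 and 8. Batf was seen in 40.0%, 38.3%, 79.6%, and 76.6%, and Jund in 92.4%, 93.3%, 86.3%, and 84.2%. Atf3 was found in 23.8%, 24.0%, 17.2%, and 16.8%. No cell type without these genes was at hand to set the background from free RNA.

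Jun behaved differently from Junb across cells. Its mean was nearly the same in all libraries, 0.69 to 0.73 UMIs per thinned cell, but cells without a Jun UMI were 55.1% and 52.1% in libraries 5 and 6 and 60.3% and 60.7% in libraries 7 and 8. Cells with 5 or more Jun UMIs were 0.672% and 0.513% of libraries 5 and 6 and 1.75% and 1.49% of libraries 7 and 8. The variance over the mean was 1.43, 1.30, 1.97, and 1.87. The same mean was therefore spread less evenly over the cells of libraries 7 and 8. A higher variance over the mean in libraries 7 and 8 was not particular to Jun. In libraries 5, 6, 7, and 8 it was 1.45, 1.38, 1.77, and 1.72 for Jund. For Junb it was 1.28, 1.26, 1.44, and 1.39, whereas Batf and Atf3 stayed between 1.28 and 1.38.

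**Figure D3:**
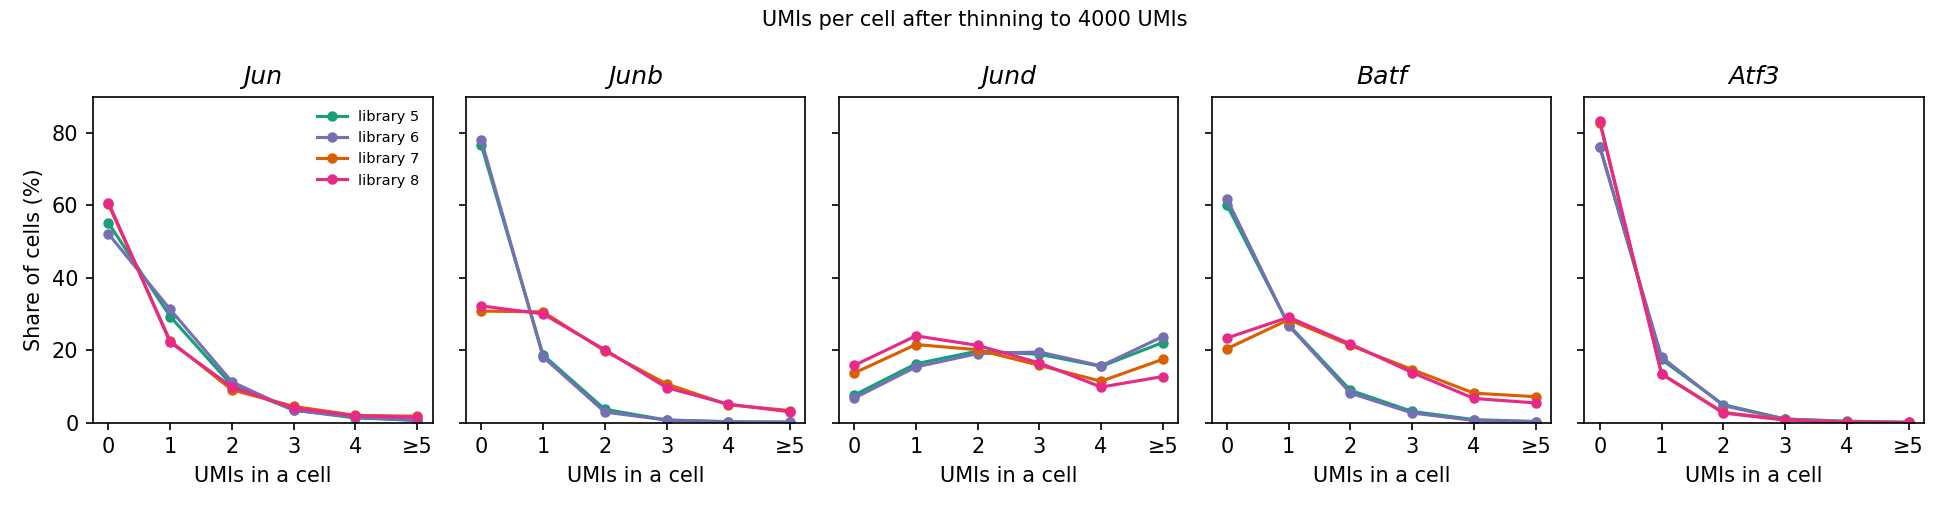
Share of cells (%, lines) by the number of UMIs per cell of 5 members after thinning to 4000 UMIs, for each library. For Junb, 76.6% and 78.0% of cells had none in libraries 5 and 6 against 30.8% and 32.2% in libraries 7 and 8, and for Jun the share with none was higher in libraries 7 and 8 although the means were alike.

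Fosl1 and Fosl2 were seen in few cells even where they were highest. Fosl1 had a UMI in 0 of 4167 thinned cells in library 5 and in 0 of 4678 in library 6. The Clopper-Pearson upper limits were 0.0885% and 0.0788% of cells with a UMI. In libraries 7 and 8 Fosl1 had a UMI in 2.60% and 2.03% of cells. Fosl2 had a UMI in 2.57% and 2.43% of cells in libraries 7 and 8. These limits and shares are of cells with a captured UMI at this depth, not of cells that express the gene, and library 6 held 1 Fosl1 UMI before thinning.

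Of the kept cells, 1496 were cycling, defined by 15 mitotic genes at 5 or more per 10000 UMIs, 145 were Jchain-high, defined by Jchain at 5 or more per 10000 UMIs, and 16893 were other cells. Cycling cells were 7.77%, 8.80%, 7.40%, and 8.47% of libraries 5, 6, 7, and 8. Near the mitotic limit, 667 cells had 3 to under 5 and 295 had 5 to under 8 per 10000, and 8 cells passed both limits and were counted as Jchain-high. Jchain-high cells had more Mzb1, Xbp1, Derl3, Txndc5, and Prdm1 than other cells in each library. Of 8 tested plasma cell genes, 6 were at least 2-fold higher in all 4, against 1.76% of 11710 genes. Jchain is among the 6 and defines the class, so its call was fixed. Irf4, also on that list, was 47.2 against 44.2 CPM in library 7 and 57.8 against 40.6 CPM in library 8. Sdc1 stayed at or below 10.3 CPM in Jchain-high cells.

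No callable member was 2-fold higher or lower in cycling than in other cells of the same library in all 4 libraries. Such calls were made for 3.53% and 0.0757% of 11894 genes. Fosl1, Fosl2, and Batf3 could not be called, with at most 3 UMIs in either class of libraries 5 and 6. Jun, Jund, and Atf3 were lower in cycling cells in all 4 libraries, a direction that 15.7% of genes shared. Jund was 782, 829, 670, and 591 CPM in other cells and 637, 601, 496, and 424 CPM in cycling cells of libraries 5, 6, 7, and 8. Its log2 ratios of -0.29, -0.46, -0.43, and -0.48 all had intervals below 0. Atf3 had ratios of -0.11, -0.18, -0.68, and -0.39, and the interval of library 5 contained 0. Jun had ratios of -0.33, -0.55, -0.01 (-0.10 to 0.08), and -0.11, so library 7 showed no difference for Jun.

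Batf and Junb went in opposite directions in different libraries. Batf was 201 CPM in cycling against 147 in other cells of library 5 and 179 against 138 in library 6, but 405 against 462 in library 7 and 367 against 428 in library 8. The log2 ratios were 0.45, 0.37, -0.19, and -0.22, with intervals on the stated side of 0 in each library. Junb was 67.5 CPM in cycling against 75.1 in other cells of library 5, 62.0 against 68.2 in library 6, 427 against 345 in library 7, and 419 against 333 in library 8. Its ratios were -0.15, -0.14, 0.31, and 0.33, and the interval of library 6 reached 0.

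The rare genes were harder to read. Fosl2 was higher in cycling cells of libraries 7 and 8, with log2 ratios of 0.71 (0.34 to 1.06) and 0.58 (0.14 to 1.01), whereas Fosl1 was -0.81 (-1.43 to -0.25) in library 7 and 0.03 in library 8. Fos was higher in cycling cells in all 4 libraries, as were 24.0% of genes, on 11, 7, 28, and 23 UMIs. Its log2 ratios were 0.54, 0.58, 1.01, and 1.21 in libraries 5, 6, 7, and 8. Those of Fosb were -0.95, 0.55, 1.29 (0.32 to 2.18), and 1.74 (0.62 to 2.78), on 3, 5, 14, and 12 UMIs in cycling cells. Cycling cells held more UMIs than other cells, with medians of 15077 to 17277 against 8502 to 10124 per cell, and CPM divide by that depth.

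In Jchain-high cells again no callable member was 2-fold higher or lower in all 4 libraries, calls made for 1.76% and 0.845% of 11710 genes. Besides Fosl1, Fosl2, and Batf3, Fosb could not be called, as it had no UMI in Jchain-high cells. Jun, Jund, Batf, and Atf3 were lower in all 4, as were 25.1% of genes. Atf3 had 22.4, 6.18, 30.2, and 23.6 CPM in Jchain-high cells of libraries 5, 6, 7, and 8 against 81.9, 82.0, 56.3, and 58.0 CPM in other cells. These values rest on 7, 3, 23, and 9 UMIs, and library 7, with a log2 ratio of -0.90, was the only library short of 2-fold.

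Batf was 41.6 CPM in Jchain-high against 147 in other cells of library 5, 18.5 against 138 in library 6, 287 against 462 in library 7, and 339 against 428 in library 8. The log2 ratios were -1.82 (-2.73 to -1.05), -2.90 (-4.03 to -1.98), -0.69 (-0.88 to -0.49), and -0.34 (-0.60 to -0.09). Intervals of libraries 5 and 6 did not overlap those of libraries 7 and 8. Irf4, which encodes a partner of BATF, was 240 and 241 CPM in Jchain-high cells of libraries 5 and 6 against 3.26 and 3.55 CPM in other cells, and 47.2 and 57.8 against 44.2 and 40.6 CPM in libraries 7 and 8.

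Junb was -1.55 in Jchain-high cells of library 5, on 8 UMIs, and between -0.23 and 0.12 in the other libraries. Fos was higher in Jchain-high cells in all 4 libraries, a direction that 6.87% of genes shared, but on 4, 1, 6, and 1 UMIs. These UMIs came from 4.17% of 24, 2.63% of 38, 3.64% of 55, and 3.57% of 28 Jchain-high cells. So few cells cannot show a direction.

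**Figure D4:**
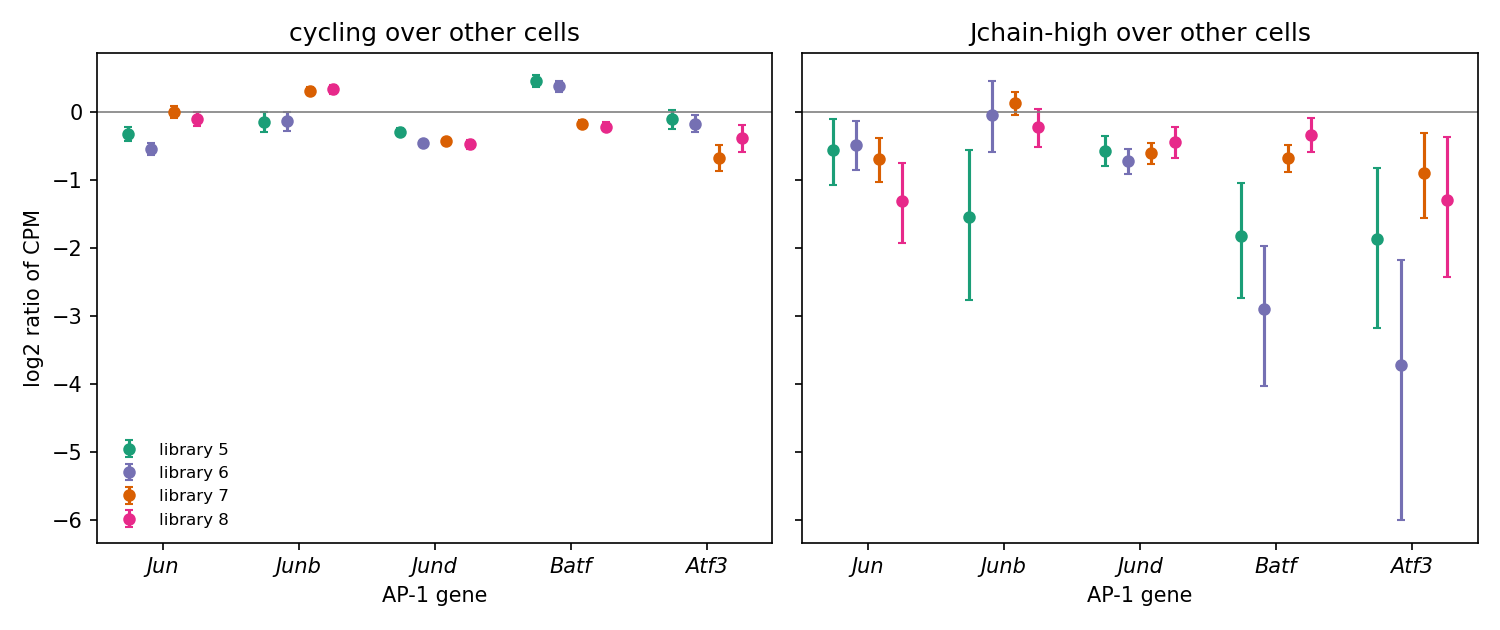
Log2 ratio of CPM in cycling cells (left) or Jchain-high cells (right) over other cells of the same library for the 5 abundant members, with exact conditional 95% intervals; the line marks no difference. Batf ratios for cycling cells were 0.45 and 0.37 in libraries 5 and 6 and -0.19 and -0.22 in libraries 7 and 8, and Jund was below 0 in every library and class.

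Junb and Batf were higher in libraries 7 and 8 than in libraries 5 and 6 in each class. In cycling cells Junb was 67.5, 62.0, 427, and 419 CPM, and in Jchain-high cells it was 25.6, 65.9, 376, and 284 CPM in libraries 5, 6, 7, and 8. In Jchain-high cells of libraries 5, 6, 7, and 8, Fosl1 had 0, 0, 7, and 1 UMIs and Fosl2 had 0, 0, 2, and 2. The exact Poisson upper limit at 0 UMIs was 11.8 CPM in library 5 and 7.60 CPM in library 6. These are too few UMIs to compare libraries for these genes in that class.

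Genes around AP-1 were counted over lists chosen with earlier results of these data known, so the counts are a description. Of 13 tested partner and related bZIP factors, 5 were at least 2-fold higher and 1 was lower both for library 7 over 5 and for library 8 over 6, with list medians of 0.89 and 0.63. Over all genes 16.2% were higher and 15.0% lower for library 7 over 5, and 13.5% and 16.6% for library 8 over 6, with medians of 0.16 and 0.06. Irf4 was 4.91, 6.35, 43.8, and 40.7 CPM in libraries 5, 6, 7, and 8, and Irf8, the other IRF partner, was 537, 560, 203, and 196 CPM. Atf4, a stress-responsive bZIP factor, was 94.5, 93.6, 305, and 277 CPM. Jdp2, a JUN dimerisation protein, was 2.43, 2.03, 13.7, and 13.2 CPM, and Maff, a small MAF protein, was 0.357, 0.368, 2.48, and 2.15 CPM. Maff, with 16, 19, 158, and 98 UMIs, passed the UMI limit only through library 7 or 8 and could only be called higher. The IRF partners thus went in opposite directions between the same libraries.

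Of 15 MAP kinases and kinases above them, 1 was higher and 2 were lower in both comparisons, with medians of 0.28 and 0.18, so the count lower was near the 15.0% and 16.6% of all genes and the count higher was below their 16.2% and 13.5%. Map2k3, which activates p38, was 14.7, 14.8, 31.4, and 30.6 CPM in libraries 5, 6, 7, and 8. Map3k1 was 99.5, 102, 40.5, and 40.0 CPM, and Map2k6 was 2.88, 3.02, 1.07, and 0.985 CPM. Of 8 factors that transcribe FOS genes, Srf and Elk3 were higher and none was lower in both comparisons, beside the same shares of all genes.

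Of 12 tested other immediate early genes, 8 were higher and 1 lower for library 7 over 5, and 7 were higher and 2 lower for library 8 over 6, beside 16.2% higher and 15.0% lower and 13.5% higher and 16.6% lower of all genes. Egr2, a zinc finger factor, was 1.36, 1.26, 11.0, and 10.5 CPM, and Myc was 15.3, 15.4, 63.8, and 60.0 CPM in libraries 5, 6, 7, and 8. Nr4a3, an orphan nuclear receptor, was 0.178, 0.194, 1.56, and 1.66 CPM, and Ier3 was 0.401, 0.717, 1.82, and 1.36 CPM. Nr4a3 had 8, 10, 99, and 76 UMIs, and Ier3 had 18, 37, 116, and 62. Nr4a3 in both comparisons, and Ier3 for library 7 over 5, passed the UMI limit only through the library where they were high. There these genes could only be called higher. Btg2, an antiproliferative gene, was 221, 238, 56.4, and 56.5 CPM. The list medians were 1.65 and 1.41.

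Heat shock genes, which can rise with handling, were higher in the same libraries. Of 5 tested, 3 were higher for library 7 over 5 and 4 for library 8 over 6, beside 16.2% and 13.5% of all genes. None was lower, beside 15.0% and 16.6%. All 7 genes of the list summed to 2449, 2419, 6155, and 5836 CPM, led by Hspa8. Hsph1 was 37.1, 34.7, 134, and 119 CPM, and Hspa1a, with too few UMIs to be tested, stayed at or below 0.440 CPM. The part of these genes in the AP-1 differences was not tested.

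Of 7 turnover and feedback genes, 2 were higher in both comparisons, beside 16.2% and 13.5% of all genes. Dusp2, a phosphatase that switches MAP kinases off, was 68.6, 66.5, 439, and 399 CPM, and Dusp5 was 2.30, 2.13, 12.6, and 12.7 CPM in libraries 5, 6, 7, and 8. Sik1 was the 1 gene of 7 at least 2-fold lower for library 8 over 6, near the 16.6% of all genes. None was lower for library 7 over 5, against 15.0%. The list medians were -0.07 and -0.29.

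**Figure D5:**
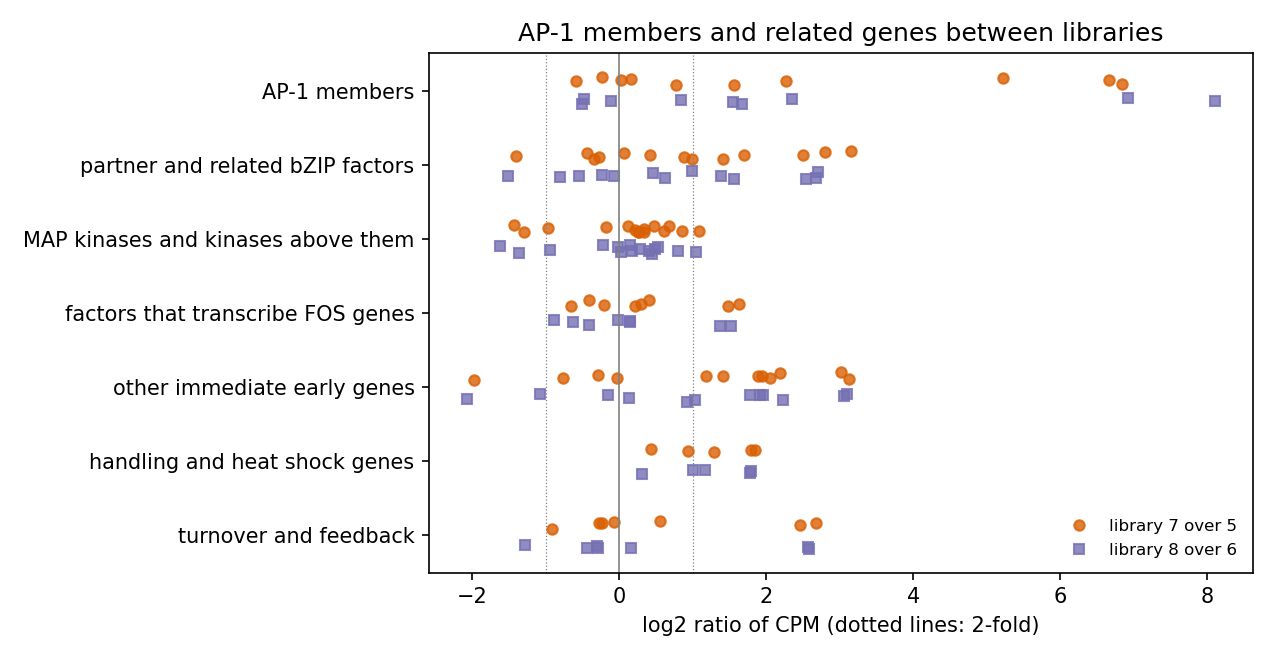
Log2 ratios of CPM for library 7 over 5 (circles) and library 8 over 6 (squares) of each AP-1 member and each gene of 6 related lists with at least 50 UMIs in the pair; dotted lines mark 2-fold. The list medians for library 7 over 5 were 1.65 for other immediate early genes, and 0.28 for the MAP kinases, beside 0.16 for all genes.

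Across single cells the correlations between abundant members were low, in counts too sparse to tell whether these genes vary together. Over 3586 to 5067 thinned other cells per library, none of the 45 pairs reached a Pearson correlation of 0.2 in all 4 libraries. Pairs with Fosl1 or Fosl2 could not reach it, as these cells of library 6 held no UMI of either gene. Batf3 had a UMI in only 1 such cell each of libraries 5 and 6. Among 4727 genes of at least 20 CPM, the gene most like Junb was Egr1, with a mean correlation of 0.15 (0.10 to 0.20), then Ier2 with 0.10. The most alike was Nfkbia for Jun (0.11), Cd24a for Batf (0.13), Cd79b for Jund (0.14), and Cd83 for Atf3 (0.08). All were weak and no finding in such sparse counts, and the cells of a library share its depth and RNA.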

How the data were processed

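The deposited values are UMI counts per gene and cell, which the authors made with 10x Chromium Single Cell 3′ v3 libraries, bcl2fastq, and Cell Ranger (version 3.1.0) on mouse mm10 with Ensembl genes, combined by a step that evens out sequencing depth. Imputed values were not used here. The matrix has 35989 columns and 19920 barcodes. The barcodes were laid on the last columns, which leaves aside the 16069 columns in front. Along the used columns, the shift in mean expression at the start of library 7 was at percentile 100, at that of library 8 at 96.4, and at that of library 6 at 93.1.

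Cells with at least 1000 genes and under 10% mitochondrial UMIs were kept. Of the 19920 cells, 559 had fewer genes and 1110 had more mitochondrial UMIs, and doublets were not called. UMIs were summed per library and class and divided by all UMIs there. Intervals at 95% are exact Poisson (CPM), exact conditional (ratios), and Clopper-Pearson (shares), from SciPy (version 1.17.1), and cover counting error only. A gene was called past 2-fold with at least 50 UMIs, and 3 UMIs replaced a count of 0 in ratios. No test across samples was made, as no label maps libraries to samples. TMM factors of edgeR (version 4.0.16) and size factors of DESeq2 (version 1.42.0) served as alternative scalings only. The ratio script was checked on simulated data. Gene positions are from GENCODE vM21 and promoters from RefSeq, both on GRCm38.

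The members and lists were chosen with earlier results of these data known. Named genes are the 10 members, list genes past 2-fold (at most 4 per list by size), and the genes most correlated with a member. Irf8, Btg2, Sik1, Hspa1a, and the class markers were named after their values were seen.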

Additional observations from a re-analysis of the deposited data

How the results depend on the processing

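The count of members past 2-fold between libraries was 7 and stayed between 5 and 8 with other cell filters, denominators, scalings, UMI minimums, and a 1.5-fold limit, and it was 4 at 4-fold. It was 5 among cells under 5% mitochondrial UMIs, where Fosb and Batf3 were no longer called and libraries 5 and 6 kept only 143 and 207 cells. With 1 library left out at a time the count was 5 to 7, and it was 5 without library 6, where Fos and Fosb dropped out, and 5 without library 7, where Fosb and Batf3 did. Fosl1 and Fosl2, whose calls were fixed by the UMI limit in the main setting, were in every one of these counts. The share of all genes was 38.0% in the main setting and 13.2% at 4-fold. No such share was taken at the other settings, also for the class counts below. The count for Jchain-high cells was 0. It was 1 as a mean over cells and 1 at 1.5-fold, in both cases Atf3, and 2 without the 5% of cells with the most UMIs, Atf3 and Fos. With 1 library left out it was 0 to 1, with Atf3 called without library 7 and Fos without library 8. The count for cycling cells and the count of correlated pairs were 0 under all alternatives. In the main setting, the members and pairs with too few UMIs, named above, could not add to these counts or to that for Jchain-high cells. TMM scaling lowered log2 ratios of library 7 over 5 by 0.12.

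Of single-gene ratios, 698 stayed within a set limit and 119 moved past it. The limit was the counting interval for ratios between libraries. For class ratios, taken as medians over libraries, it was the standard deviation over libraries. Junb stayed between 2.07 and 2.27 and Batf between 1.13 and 1.65 for library 7 over 5 on the log2 scale. Fosl2 stayed above 0 but had 3.50 for library 7 over 5 under 5% mitochondrial UMIs, where library 5 kept 1 Fosl2 UMI. With 3 UMIs in place of 0, the log2 ratio of Fosl1 for library 8 over 5 was 6.32 in all kept cells. It was 1.39 in these fewer cells. There the ratio of Fos for library 8 over 5 was -0.81 and that of Fosb for library 8 over 6 was -0.67, both positive otherwise. No paired analysis was possible because the barcodes carry no sample or replicate number and the results come from no test. Few UMIs limit Fos, Fosb, Fosl1, Fosl2, Batf3, and every value in the 145 Jchain-high cells.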

Other observations

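The 4 library numbers carry no sample name, and the values of several members fell into separate clusters. Junb was 73.7, 67.3, 354, and 343 CPM, Batf was 154, 143, 454, and 420 CPM, and Atf3 was 80.7, 79.9, 53.7, and 56.0 CPM in libraries 5, 6, 7, and 8. Over all genes, 0.0812% were at least 2-fold higher and 0.117% at least 2-fold lower in library 6 than in library 5, and 0.109% and 0.474% in library 8 than in library 7. For library 7 over 5 these shares were 16.2% and 15.0%.

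S-phase genes, which drive DNA replication, summed to 442, 463, 837, and 805 CPM in libraries 5, 6, 7, and 8, while the mitotic list summed to 477, 533, 288, and 324 CPM. The cycling class, set by mitotic genes, therefore does not hold all cells with raised S-phase genes. No callable AP-1 member was past 2-fold in all 4 libraries when cells with raised S-phase genes were also counted as cycling. Fosl1, Fosl2, and Batf3 again had too few UMIs in libraries 5 and 6 to be called.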
